A study of Mus musculus with 20 samples.

Results

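The 10 genes described here encode the enzymes and proteins that copy and transcribe mitochondrial DNA (mtDNA): Twnk, Polg, Polg2, Ssbp1, Top1mt, Mgme1 and Primpol for replication, and Tfam, Polrmt and Tefm for transcription. They were listed by name for these functions, with earlier results of these data known, and all 10 were found among the 28632 genes of the count table. RNA was sequenced from islets of 12-week-old mice on a C57BL/6N background, in which β-cells lost the mitochondrial fusion genes Mfn1, Mfn2 or both. The question put to the 10 genes is whether their mRNAs differed between islets with and without β-cell Mfn1 and Mfn2.

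Ctrl, the reference group, held 6 libraries (3 female, 3 male), labelled wild type, for which the study pooled Cre carriers that had no floxed allele with floxed mice that had no Cre. Which of the 6 carried Cre is not given in the sources used here. β-Mfn1KO (Mfn1-/- in the labels) held 4 libraries, 3 female and 1 male. β-Mfn2KO (Mfn2-/-) held 5, 2 female and 3 male, and β-Mfn1/2DKO (Mfn1-/-;Mfn2-/-) held 5, 2 female and 3 male. Ins1-Cre is active in β-cells, so other islet cells keep both genes. Islets were isolated with collagenase, picked by hand and cultured before RNA was taken, and cells were not sorted. Each library is a separate sample in the labels, and p-values set the difference between groups against the spread between these samples.

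Mitochondrial DNA is a small circle present in many copies per cell and packed into nucleoids. Its replication needs a dedicated machinery, in which the Twinkle helicase opens the duplex, DNA polymerase γ copies it, and the single-stranded DNA binding protein coats the exposed strand. Transcription by the mitochondrial RNA polymerase also makes the primers for replication, so both processes share factors, and Tfam both packs mtDNA and starts transcription. All of these proteins are encoded in the nucleus and imported.

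Mfn1 and Mfn2 mRNA checked the labels. Each was lower in every library labelled as its knockout than in any Ctrl library, with a log2 fold change of -1.07 (SE 0.09) for Mfn1 and -0.75 (SE 0.07) for Mfn2 in β-Mfn1/2DKO. Total counts ran from 12400687 to 20329064 in Ctrl, from 15745680 to 16685381 in β-Mfn1KO and from 65533388 to 122947313 in β-Mfn1/2DKO, and in β-Mfn2KO 3 libraries had up to 18919122 counts and replicates 4 and 5 had 55962873 and 59533407. No β-Mfn1/2DKO library was as shallow as any Ctrl or β-Mfn1KO library, so depth and genotype cannot be told apart in comparisons with these groups. All 5 β-cell markers examined, Ins1, Ins2, Iapp, Slc2a2 and Mafa, were lower in β-Mfn1/2DKO, and in whole islets fewer cells of a type and less RNA per cell cannot be told apart. In slightly younger mice the study reported a β-cell mass that did not differ significantly by genotype. All 12 acinar markers were higher, led by replicates 4 and 5, where their summed level was 23675 and 61737 CPM (counts per library of a common size). It was 391 to 2698 CPM in Ctrl and 606 to 1026 CPM in the other β-Mfn1/2DKO libraries. The 4 endothelial markers (Pecam1, Cdh5, Kdr, Plvap) were higher too, at a summed 146 to 238 CPM against 98.0 to 148 CPM in Ctrl. Among 4 duct markers Krt19 and Krt7 were higher, and among 4 fibroblast and stellate cell markers Pdgfrb was higher.

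The stretch around the transcription start of the genes is shown for 4 members that stand for the patterns below: Mgme1, which was higher in β-Mfn1/2DKO, Ssbp1, which was lower, and Tfam and Polrmt, whose differences did not pass the test. Each line gives 250 bases before and 50 bases after a RefSeq transcript start on GRCm38.p6, read 5′ to 3′ along the gene's strand. Capitals mark matches to CCGGAAG, letters bound by ETS factors such as GABP, or to a motif of the factor NRF-1. Both strands were searched, so that an ETS match can also read CTTCCGG. In these 4 windows the NRF-1 motif occurs only in that of Polrmt, as the last run of capitals in the line, and the remaining capitals are ETS matches.
Mgme1, chr2:144270654-144270953, plus strand: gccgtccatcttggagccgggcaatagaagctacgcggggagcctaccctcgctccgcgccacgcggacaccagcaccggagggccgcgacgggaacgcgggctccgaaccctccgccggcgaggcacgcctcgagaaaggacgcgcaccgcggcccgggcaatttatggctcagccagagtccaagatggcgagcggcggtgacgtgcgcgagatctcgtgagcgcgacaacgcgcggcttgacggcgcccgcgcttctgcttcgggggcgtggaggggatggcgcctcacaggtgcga
Ssbp1, chr6:40471218-40471517, plus strand: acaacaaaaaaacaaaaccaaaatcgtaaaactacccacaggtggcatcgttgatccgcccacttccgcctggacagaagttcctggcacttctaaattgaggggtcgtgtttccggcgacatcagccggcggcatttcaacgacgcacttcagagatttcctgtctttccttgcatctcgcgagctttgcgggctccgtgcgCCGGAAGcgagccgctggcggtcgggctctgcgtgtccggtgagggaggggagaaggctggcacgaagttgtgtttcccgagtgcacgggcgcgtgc
Tfam, chr10:71237995-71238294, minus strand: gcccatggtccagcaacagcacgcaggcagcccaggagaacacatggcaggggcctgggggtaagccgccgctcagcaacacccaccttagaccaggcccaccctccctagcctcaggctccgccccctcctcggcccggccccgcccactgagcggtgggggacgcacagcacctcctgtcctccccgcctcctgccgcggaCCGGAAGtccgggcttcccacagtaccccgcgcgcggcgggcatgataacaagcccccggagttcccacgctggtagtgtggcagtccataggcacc
Polrmt, chr10:79746532-79746831, minus strand: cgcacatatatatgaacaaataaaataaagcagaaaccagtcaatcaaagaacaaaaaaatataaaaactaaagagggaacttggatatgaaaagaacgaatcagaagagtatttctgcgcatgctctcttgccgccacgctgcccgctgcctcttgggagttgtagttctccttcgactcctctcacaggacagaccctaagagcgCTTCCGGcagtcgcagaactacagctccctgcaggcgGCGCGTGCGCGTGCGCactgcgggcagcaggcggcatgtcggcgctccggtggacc
Among all 32851 windows of this length, 4.60% held the NRF-1 motif and 8.86% the ETS letters. The table had 10 windows for 9 members, 2 of them for Twnk. The NRF-1 motif was found in 1 of the 10, that of Polrmt, where a pair of matches overlap. The ETS letters were found in 7 of the 10, the windows of Ssbp1, Polg, Tfam, Polrmt, Tefm and Polg2 and 1 of the 2 windows of Twnk. Neither was found in the windows of Mgme1 and Primpol. The RefSeq starts used for Mgme1, Ssbp1 and Tfam lie inside the gene bounds given below, so part of the bases before each start is within the gene. A match describes the letters only.

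Values below are counts scaled by TMM, edgeR's correction for library composition, to the mean effective size of the 20 libraries, and are called normalized counts. The raw counts behind them ran from 15 to 486 for Top1mt, the least abundant member, and from 527 to 7209 for Polg, so Top1mt has the widest errors. All 10 genes had counts in all 20 libraries and all 10 were kept by a filter on low counts. A gene passed the test at an adjusted p under 0.05 (edgeR's quasi-likelihood test, Benjamini-Hochberg over 28632 genes).

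Divided by the length of the longest annotated coding transcript, the Ctrl levels fell into tiers. Tfam stood at 371 ± 22.7 normalized counts per kb (SD, n = 6) and Polrmt at 370 ± 9.78, which differed by less than their SDs. Ssbp1 followed at 345 ± 13.6 per kb and Tefm at 294 ± 27.3. Twnk, at 254 ± 27.3 per kb, and Polg, at 250.4 ± 20.6, again differed by less than their SDs, although one is the helicase and the other the catalytic subunit of the polymerase. Polg2, the accessory subunit that raises the polymerase's processivity, stood at 154 ± 11.1 per kb. Mgme1, a nuclease that trims single-stranded ends of mtDNA, was at 120 ± 12.0 per kb, Primpol, a primase-polymerase that restarts stalled forks, at 76.8 ± 6.44, and Top1mt, the mitochondrial topoisomerase, at 42.8 ± 8.80. The order holds only for these lengths: Ssbp1 has 5 coding transcripts of 579 to 4398 bases and Tfam 4 of 472 to 4167 bases. In β-Mfn1/2DKO, Mgme1 at 171 ± 8.15 per kb (SD, n = 5) stood level with Polg2 at 168 ± 21.2. Tfam was again at the top of the order, at 398 ± 11.3, and Top1mt, at 88.4 ± 22.5, had moved from last place to within its SD of Primpol, at 78.5.

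In β-Mfn1/2DKO against Ctrl, 3 of the 10 members were higher (Top1mt, Mgme1 and Polg) and 1 was lower (Ssbp1). The study had already reported Top1mt as higher in β-Mfn1/2DKO from these libraries, and the members were listed with earlier results known. The share of members that passed is therefore not a test of these genes. Among all genes tested, 16.5% passed in this comparison, 9.59% higher and 6.86% lower, and of the 15267 genes kept by filterByExpr, edgeR's filter on low counts, 29.3% passed. When counts were scaled by library total instead, which moved the median of the filtered genes from 0.04 to 0.17, 6 members passed and all 6 were higher, with Twnk (0.28), Tfam (0.24) and Polrmt (0.21) added and Ssbp1 lost. The median log2 fold change was 0.11 over the 10 members and 0.06 over all genes. With a fold change over 1.5 also required, which 5.21% of all genes met, Top1mt alone remained. The libraries of both groups did not overlap for 3 members, Top1mt and Mgme1 on the higher side and Ssbp1 on the lower, against 10.6% of all genes and 17.8% of those kept by the filter.

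**Figure D1:**
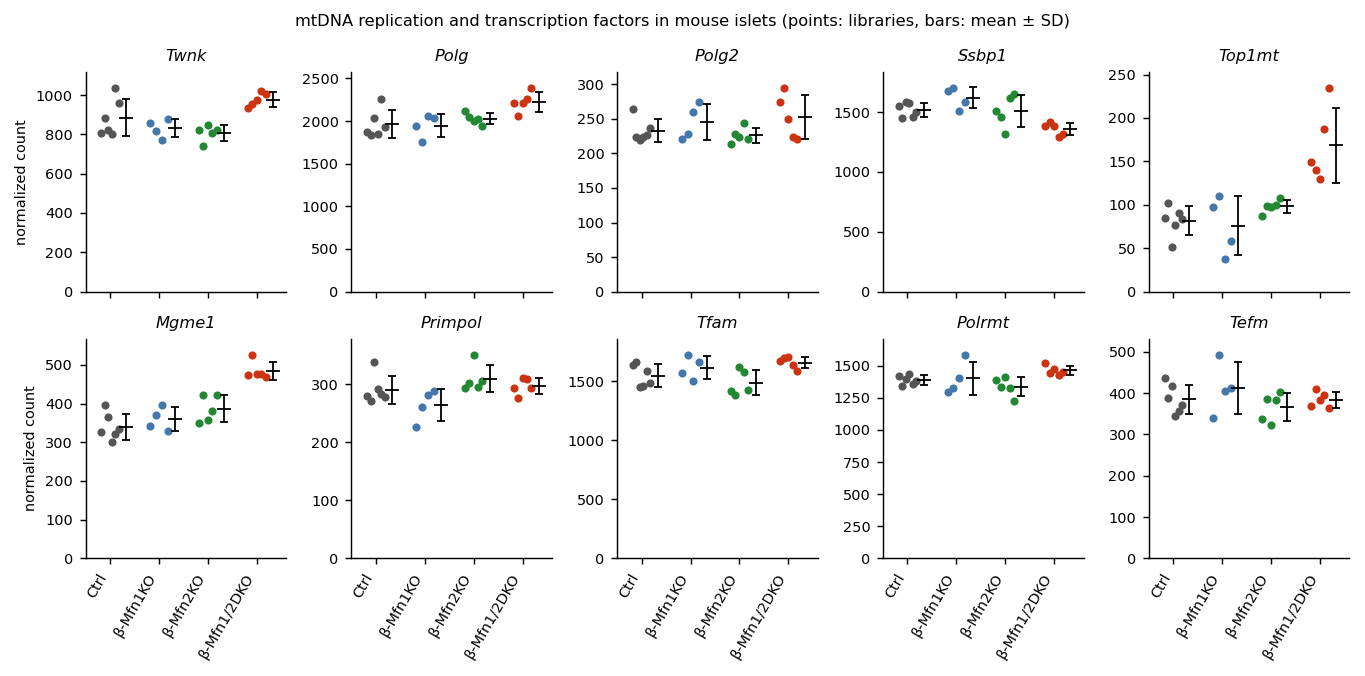
Normalized counts (y axis, from 0) of the 10 genes in each library, by genotype, with the mean ± SD beside the points. Top1mt and Mgme1 lie above every Ctrl library in all 5 β-Mfn1/2DKO libraries and Ssbp1 lies below, while the other 7 genes overlap.

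Top1mt relaxes the twisting strain that builds up in mtDNA during replication and transcription. The gene lies at chr15:75657035-75678800 on the minus strand (GRCm38). Its normalized counts in Ctrl were 51.7 at the lowest, 84.2 at the median and 102 at the highest. In β-Mfn1KO they were 97.7, 110.0, 37.3 and 58.2, and in β-Mfn2KO 87.5, 98.3, 96.9, 100.1 and 108. In β-Mfn1/2DKO they were 149, 141, 129.8, 187 and 234, all above every library of the other groups, with the highest values in replicates 4 and 5. This was 2.05-fold the Ctrl level, 1.04 on the log2 scale (95% CI 0.58 to 1.49, SE 0.22, adjusted p = 0.0018 by edgeR). Replicates 4 and 5 are also the libraries with the high acinar markers. With replicates 1 to 3 alone the log2 fold change was 0.79 (adjusted p = 0.027 by edgeR), and with the acinar level as a covariate it was 0.88 (adjusted p = 0.0060). With depth class as a covariate, an alternative chosen after seeing the data, it was 0.90 (adjusted p = 0.30). Only β-Mfn2KO held both shallow and deep libraries, so this covariate is estimated from that group alone and cannot separate depth from genotype. Its deep replicate 4 held 10186 CPM of acinar markers, against 911 CPM in deep replicate 5 and 697 to 2439 CPM in the shallow libraries. Deep replicate 5 held 316 CPM of fibroblast and stellate cell markers, against 20.5 to 70.3 CPM in the others. Depth and cell makeup are therefore not separated in this covariate.

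Mgme1 lies at chr2:144270663-144281227 on the plus strand. In Ctrl it was at 302 (lowest), 329 (median) and 396 (highest) normalized counts, while the β-Mfn1/2DKO libraries held 475, 525, 478, 475 and 469. The 3 shallow β-Mfn2KO libraries held 349.8, 422 and 358 and the 2 deep ones 382 and 423, and the β-Mfn1KO libraries held 343, 371, 397 and 329.9. Every β-Mfn1/2DKO library was above every other library, and the 5 values lay close together, with replicate 2 the highest. The level was 1.42-fold that of Ctrl, log2 0.51 (95% CI 0.34 to 0.68, SE 0.08, adjusted p = 0.00013 by edgeR). With replicates 1 to 3 alone it was 0.55 on the log2 scale, and with depth class as a covariate 0.41 (adjusted p = 0.17 by edgeR). Mgme1 overlaps Snx5 on the opposite strand, a sorting nexin gene with 951% of its counts, and whether reads were counted by strand is not given in the sources used here. Snx5 was at 0.15 on the log2 scale (adjusted p = 0.034 by edgeR) in the same comparison, and 3.86% of the 75-base stretches of Mgme1 transcripts are shared with it.

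Polg (chr7:79446231-79466362, minus strand) encodes the catalytic subunit of DNA polymerase γ. It was at 1838 (lowest), 1898 (median) and 2256 (highest) in Ctrl, while the β-Mfn1/2DKO libraries held 2217, 2056, 2215, 2263 and 2385. The groups overlapped, since the highest Ctrl library exceeded 3 of the 5 β-Mfn1/2DKO libraries. The fold change was 1.13 (95% CI 1.05 to 1.23), log2 0.18 (SE 0.06, adjusted p = 0.025 by edgeR). It did not pass without Ctrl replicate 1, 2 or 4 or without β-Mfn1/2DKO replicate 5, each left out in turn (adjusted p = 0.058 to 0.077 by edgeR), nor with β-Mfn1/2DKO replicates 1 to 3 alone (0.12) or with the acinar (0.069) or depth class (0.29) covariate. On the opposite strand Polg shares 921 exonic bases with Fanci, a DNA repair gene with 0.773% of its counts, and 5.48% of its 75-base stretches. The accessory subunit gene Polg2 (chr11:106768253-106779537, minus strand) was at 275, 295, 250.5, 224 and 221 in β-Mfn1/2DKO and between 219 and 265 in Ctrl, with replicates 1 and 2 above the Ctrl range and the other 3 within it (log2 0.12, SE 0.10, adjusted p = 0.48 by edgeR). It shares 132 exonic bases with Milr1 on the opposite strand, which had 5.10% of its counts.

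Ssbp1 (chr6:40471352-40484700, plus strand) encodes the protein that coats single-stranded mtDNA at the fork. It was at 1447 (lowest), 1524 (median) and 1583 (highest) in Ctrl, and at 1387, 1417, 1383, 1293 and 1318 in the double knockout. Each of these 5 was below every Ctrl and every β-Mfn1KO library, the latter at 1678, 1699, 1510.0 and 1586. β-Mfn2KO, at 1512, 1461, 1314, 1614 and 1654, spanned both ranges. The fold change against Ctrl was 0.895 (95% CI 0.828 to 0.968), log2 -0.16 (SE 0.05), with an adjusted p of 0.048 by edgeR. It did not pass in 17 of the 20 fits that left out 1 library (adjusted p up to 0.21 by edgeR, without β-Mfn1/2DKO replicate 4), nor with counts scaled by library total, where it was -0.02 (adjusted p = 0.86), with the acinar covariate (-0.15) or with β-Mfn1/2DKO replicates 1 to 3 alone (-0.10). With depth class as a covariate it was -0.35 (adjusted p = 0.031 by edgeR). That covariate is estimated from the shallow and deep β-Mfn2KO libraries alone, whose marker levels also differ as given above.

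Twnk (chr19:45005663-45012762, plus strand), the helicase gene, stood at 934, 952, 973, 1022 and 1004 in β-Mfn1/2DKO. Ctrl ran from 799.8 to 1035 with a median of 854, so the groups overlapped through Ctrl replicates 5 and 6 (log2 0.14, SE 0.06, 95% CI 0.01 to 0.28, adjusted p = 0.15 by edgeR). Both single knockouts lay below every β-Mfn1/2DKO library, with 857, 817, 772 and 879 in β-Mfn1KO and 821, 742, 848, 806 and 821 in β-Mfn2KO. Twnk shares exonic sequence with Mrpl43 on the opposite strand, a mitochondrial ribosomal protein gene with 138% of its counts, and 11.1% of its 75-base stretches. Mrpl43 was at 0.23 on the log2 scale (adjusted p = 0.030 by edgeR) in β-Mfn1/2DKO against Ctrl. Primpol (chr8:46575594-46617212, minus strand) was at 294, 277, 310.1, 308 and 293 in β-Mfn1/2DKO, within the Ctrl range of 271 to 337 (log2 0.03, SE 0.09, adjusted p = 0.84). It shares 14.2% of its 75-base stretches with Cenpu, a centromere protein gene on the opposite strand with 16.4% of its counts.

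None of the 3 transcription genes passed the test in β-Mfn1/2DKO against Ctrl. Tfam (chr10:71225464-71238280, minus strand) was at 1669, 1694, 1701, 1634 and 1587 in β-Mfn1/2DKO and at 1453 (lowest), 1537 (median) and 1665 (highest) in Ctrl, with the upper 3 values above every Ctrl library and the lower 2 within the range. The fold change was 1.07 (95% CI 0.992 to 1.16, adjusted p = 0.25 by edgeR). With TMM scaling, this interval holds no fall as large as that of any mtDNA-encoded mRNA. It describes mRNA of whole islets, in which other cells keep both genes, and the sign of Tfam depends on the scaling, as given below. The study reported less Tfam protein in double knockout islets, with Tfam mRNA unchanged. The part of Tfam in the lower mtDNA-encoded mRNAs was not tested here. Polrmt (chr10:79736123-79746581, minus strand), the mitochondrial RNA polymerase gene, was at 1518, 1446, 1471, 1427 and 1451 in β-Mfn1/2DKO and between 1339 and 1435 in Ctrl. All but replicate 4 were above every Ctrl library, and the fold change was 1.05 (95% CI 0.980 to 1.13, adjusted p = 0.37 by edgeR). Tefm (chr11:80136678-80142175, minus strand), the gene of the elongation factor that keeps the polymerase on its template, was at 368, 410.3, 382, 397 and 363 in β-Mfn1/2DKO, within the Ctrl range of 344 to 436 (log2 -0.0035, SE 0.09, 95% CI -0.19 to 0.19 in edgeR's fit).

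The 13 mRNAs encoded by mtDNA, the products of this polymerase, were lower in β-Mfn1/2DKO, all 13 of them, with log2 fold changes of -2.48 to -1.60. Per count of Polrmt mRNA, the 13 mRNAs together gave 571 ± 46.6 counts in Ctrl (SD, n = 6), 554 ± 94.3 in β-Mfn1KO (n = 4), 360.1 ± 26.4 in β-Mfn2KO (n = 5) and 169 ± 25.9 in β-Mfn1/2DKO (n = 5). The β-Mfn1/2DKO libraries gave 132, 166, 162, 179 and 203 counts per Polrmt count and the β-Mfn2KO libraries 379, 356, 317, 366 and 383, against 502 to 611 in Ctrl. The groups were in separate ranges except for Ctrl and β-Mfn1KO, which overlapped. Per count of Tfam mRNA the means were 513 ± 49.4, 477 ± 49.6, 325 ± 35.6 and 149 ± 24.3 in the same order of groups. Between β-Mfn2KO and β-Mfn1/2DKO both ratios fell into separate ranges, while Polrmt and Tfam themselves had log2 fold changes of 0.13 and 0.16, neither past the threshold.

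**Figure D2:**
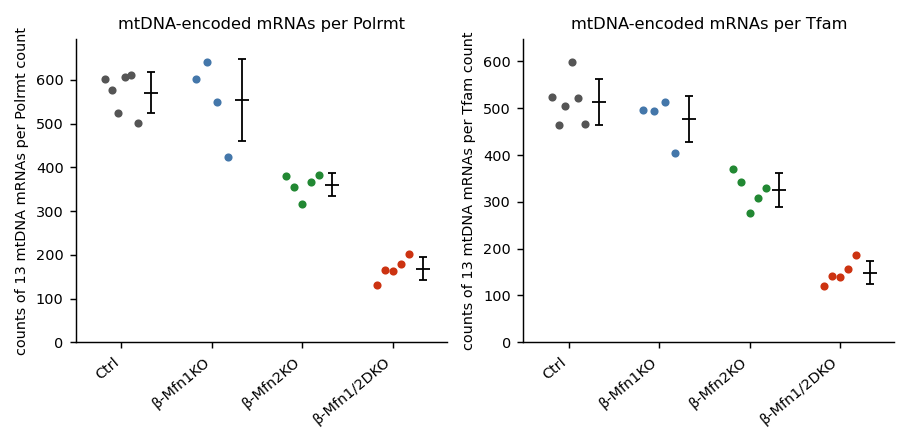
Counts of the 13 mtDNA-encoded mRNAs per count of Polrmt (left) and of Tfam (right) in each library, by genotype, with the mean ± SD beside the points. On the left, Ctrl libraries lie at 502 to 611, β-Mfn1KO libraries at 425 to 641, β-Mfn2KO libraries at 317 to 383 and β-Mfn1/2DKO libraries at 132 to 203.

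None of the 10 members passed in β-Mfn2KO against Ctrl, where 0.0559% of all genes did. At an unadjusted p under 0.05 there was 1, Mgme1 (log2 0.19, SE 0.08, adjusted p = 0.93 by edgeR), and DESeq2 also passed 0. The log2 fold changes ran from -0.13 (Twnk, SE 0.07) to 0.27 (Top1mt, SE 0.23), and the 95% intervals of all 10 lay between -0.27 and 0.74. Primpol was at 0.09, Polg at 0.05, Ssbp1 at -0.0036, Polg2 at -0.04, Polrmt and Tfam at -0.06 and Tefm at -0.06, and the libraries of both groups overlapped for all 10, as they did for all but 0.416% of genes. In this comparison 10 of the 13 mtDNA-encoded mRNAs passed and were lower, with a median of -0.68. In β-Mfn1KO against Ctrl, where 0.0279% of all genes passed, none of the members passed, none had an unadjusted p under 0.05, and DESeq2 passed 0. The values ran from -0.13 (Primpol, SE 0.10) to 0.10 (Tefm, SE 0.10), with all intervals between -0.64 and 0.41, the widest being that of Top1mt (log2 -0.12). Twnk was at -0.09, Polg at -0.01, Polrmt at 0.02, Tfam at 0.06, Polg2 and Mgme1 at 0.08 and Ssbp1 at 0.09. These comparisons share the Ctrl libraries with the one above.

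**Figure D3:**
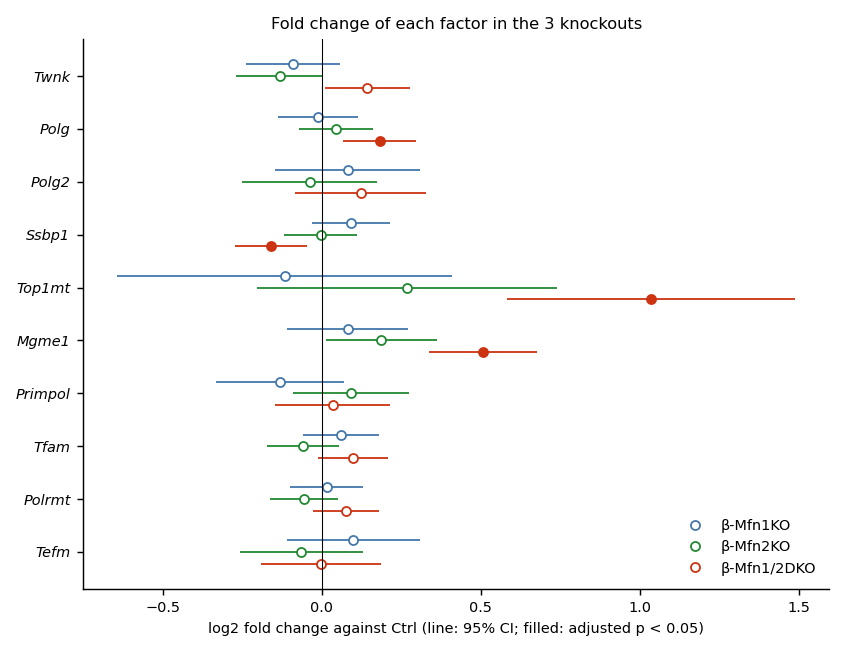
Log2 fold change (x axis) of each gene against Ctrl in β-Mfn1KO, β-Mfn2KO and β-Mfn1/2DKO, with lines for the 95% confidence interval and filled points for an adjusted p under 0.05. Filled points occur for Polg, Ssbp1, Top1mt and Mgme1 in β-Mfn1/2DKO and in neither single knockout.

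Against β-Mfn2KO, 3 of the 10 members were higher in β-Mfn1/2DKO and none was lower. Every β-Mfn1/2DKO library was deeper than every β-Mfn2KO library, at 65533388 counts or more against at most 59533407. Depth and genotype are therefore not fully separated here, also with the deep libraries alone. Of all genes 13% passed, 7.09% on the higher side, and of genes kept by the filter 23%. Top1mt was higher by 0.77 on the log2 scale (SE 0.22, adjusted p = 0.023), Twnk by 0.27 (SE 0.07, adjusted p = 0.0071) and Mgme1 by 0.32 (SE 0.08, adjusted p = 0.012), all by edgeR. Mrpl43, which overlaps Twnk, was at 0.26 here (adjusted p = 0.023). For Top1mt, Twnk and Mgme1 and for Polrmt the libraries did not overlap, against 11.8% of all genes and 20.6% of those kept by the filter. Polrmt was at 0.13 on the log2 scale (adjusted p = 0.11) and Tfam at 0.16 (adjusted p = 0.064), while Ssbp1 was at -0.16 (adjusted p = 0.073) and Polg at 0.14 (adjusted p = 0.13) by edgeR. Polg2 was at 0.16, Tefm at 0.06 and Primpol at -0.06. Top1mt did not pass without β-Mfn2KO replicate 1 (adjusted p = 0.056) or β-Mfn1/2DKO replicate 5 (adjusted p = 0.078). Without β-Mfn2KO replicate 3, 6 members passed, with Ssbp1, Tfam and Polrmt added. With the deep libraries alone, all of β-Mfn1/2DKO and 2 of β-Mfn2KO, Top1mt was at 0.74 (adjusted p = 0.12), Mgme1 at 0.32 (adjusted p = 0.086) and Twnk at 0.31 (adjusted p = 0.021) by edgeR.

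Against β-Mfn1KO, 5 of the 10 members passed, 4 higher and 1 lower. All β-Mfn1/2DKO libraries were deeper than all β-Mfn1KO libraries, so depth and genotype cannot be told apart here. Of all genes 17.4% passed, 9.67% higher and 7.69% lower, and of genes kept by the filter 31%. Top1mt was higher by 1.15 on the log2 scale (SE 0.25, adjusted p = 0.0021), Mgme1 by 0.43 (SE 0.09, adjusted p = 0.0020), Twnk by 0.23 (SE 0.07, adjusted p = 0.026) and Polg by 0.19 (SE 0.06, adjusted p = 0.031), and Ssbp1 was at -0.25 (SE 0.06, adjusted p = 0.0047), by edgeR. The libraries did not overlap for Top1mt, Twnk, Mgme1 and Ssbp1, against 18.2% of all genes and 29% of those kept by the filter. Primpol was at 0.17, Polrmt at 0.06, Polg2 and Tfam at 0.04 and Tefm at -0.10. Neither Twnk nor Polg passed without β-Mfn1KO replicate 2 or without β-Mfn1/2DKO replicate 5. Twnk also did not pass without β-Mfn1KO replicate 3, nor Polg without β-Mfn1KO replicate 1.

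The interaction compares the effect of losing Mfn1 in islets without Mfn2 with its effect in islets with Mfn2. Every β-Mfn1/2DKO library was deeper than every library of the other groups, so depth and genotype cannot be told apart in it. The interaction passed for 1 of the 10 members, Twnk, beside 5.92% of all genes, 2.88% on the higher side, and 10.9% of genes kept by the filter. The interaction was 0.37 on the log2 scale for Twnk (SE 0.10, 95% CI 0.16 to 0.57, adjusted p = 0.027 by edgeR): Twnk was at -0.09 in β-Mfn1KO and -0.13 in β-Mfn2KO against Ctrl and at 0.14 in the double knockout. It did not pass without β-Mfn1KO replicate 2 (adjusted p = 0.056) or 3 (0.061) or β-Mfn2KO replicate 2 (0.059). Nor did it pass with the acinar covariate (0.34, adjusted p = 0.066), with β-Mfn1/2DKO replicates 1 to 3 alone (0.35, adjusted p = 0.072) with the replicate number as a block (0.32, adjusted p = 0.082), with depth class as a covariate (0.35, adjusted p = 0.11) or with the authors' factors (0.28, adjusted p = 0.17). Mrpl43, the gene overlapping Twnk, had an interaction of 0.12 (adjusted p = 0.65 by edgeR). Ssbp1 had an interaction of -0.25 (adjusted p = 0.080), Top1mt of 0.89 (SE 0.34, adjusted p = 0.14) and Mgme1 of 0.24 (adjusted p = 0.32) by edgeR, so a difference was not shown for these. Polg was at 0.15, Polrmt at 0.12, Tfam at 0.10, Polg2 at 0.08, Primpol at 0.07 and Tefm at -0.04.

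Of 10 accessory genes of mtDNA replication, 2 passed in β-Mfn1/2DKO against Ctrl, or 20%, beside the 16.5% of all genes and 29.3% of genes kept by the filter given above, which also stand beside the counts of the lists that follow. Polb, a gap-filling polymerase, was higher (log2 0.23, SE 0.05, adjusted p = 0.0035) and Fen1, a flap endonuclease, was lower (-0.33, SE 0.10, adjusted p = 0.028, both by edgeR), with a list median of -0.11. None of 8 accessory genes of transcription passed in edgeR's test (unadjusted p under 0.05 for 2, median -0.01). In edgeR's test 3 of 9 base excision repair genes (33.3%, beside 29.3%) were higher, the glycosylase genes Ogg1 (0.28) and Neil2 (0.37) and the endonuclease gene Apex1 (0.40).

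Of 11 genes of nucleoid proteins and mitochondrial protein control, 6 were higher and 1 was lower in edgeR's test, 63.6% in all beside 16.5% of all genes and 29.3% of those kept by the filter, with a median log2 fold change of 0.22. The list was chosen with earlier results of these data known, and the study had already reported Lonp1, Dnaja3 and Slc25a33 as higher in β-Mfn1/2DKO. Its share is therefore not a test of nucleoid genes. Lonp1, the matrix protease known to degrade Tfam, stood at 20856 ± 1785 normalized counts (SD, n = 5) where Ctrl had 9825 ± 1464 (n = 6), and rose by 1.09 on the log2 scale (SE 0.12, adjusted p = 1.1e-06 by edgeR). Its lowest β-Mfn1/2DKO library, 17867, was above its highest Ctrl library, 11870.3. Slc25a33, a mitochondrial pyrimidine nucleotide carrier, rose by 1.55 (SE 0.13), Dnaja3, a matrix co-chaperone, by 0.66 (SE 0.08), Hspa9, its partner chaperone, by 0.49 (SE 0.11), Atad3a, a membrane ATPase of nucleoids, by 0.40 (SE 0.08) and Phb2, a prohibitin, by 0.22 (SE 0.05), all on the log2 scale. Shmt2, a serine hydroxymethyltransferase of one-carbon metabolism, fell by 0.43 (SE 0.11).

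Of 10 nuclear regulators, 2 passed and were higher, a share of 20% beside 16.5% of all genes and 29.3% of those kept by the filter. The study had already reported Nrf1 as higher in β-Mfn1/2DKO. This share is therefore not a test of nuclear regulators. Nrf1, the gene of NRF-1, stood at 3409 ± 482 normalized counts (SD, n = 5) where Ctrl had 1785 ± 216 (n = 6), log2 0.93 (SE 0.10, adjusted p = 1.8e-06 by edgeR). Myc, a growth-linked transcription factor gene, rose by 1.64 (SE 0.22, adjusted p = 1.2e-05 by edgeR). Polrmt, the member whose window holds the NRF-1 letters, was at 0.08 on the log2 scale (SE 0.05, adjusted p = 0.37 by edgeR).

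**Figure D4:**
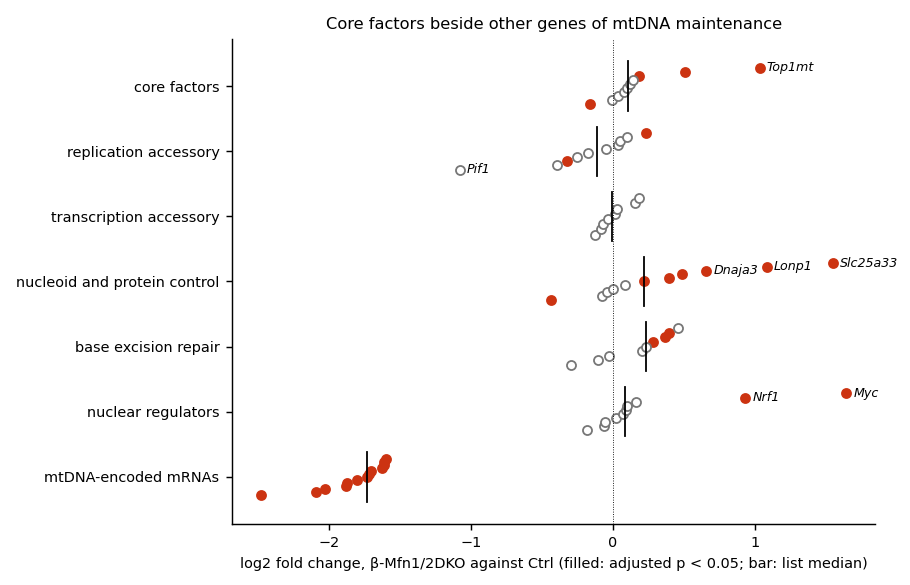
Log2 fold change in β-Mfn1/2DKO against Ctrl (x axis) of the core factors and of 6 other gene lists, 1 point a gene, filled for an adjusted p under 0.05, with a bar at each list's median. The core factors other than Top1mt and Mgme1 lie between -0.16 and 0.18, while all 13 mtDNA-encoded mRNAs lie below -1.5.

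The deposited normalized values give another figure for Tfam. The authors' normalization factors differ between genes of a library, and the factor of Tfam, relative to the median factor of each library, was higher by 0.23 log2 units in β-Mfn1/2DKO than in Ctrl. The absolute difference was smaller in 96.5% of the 12356 genes averaging 100 counts or more, and the other 9 members lay between -0.04 and 0.06. With these factors the Ctrl level of Tfam was 1138 ± 155 (n = 6) and the double knockout level 1019.9 ± 93.1 (SD, n = 5), log2 -0.16 (adjusted p = 0.29 by edgeR) in place of 0.10. The direction of Tfam between these groups therefore depends on the factors, and it passed the test with neither of these 2 sets, but did with total-count scaling (0.24, adjusted p = 0.0040).

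**Figure D5:**
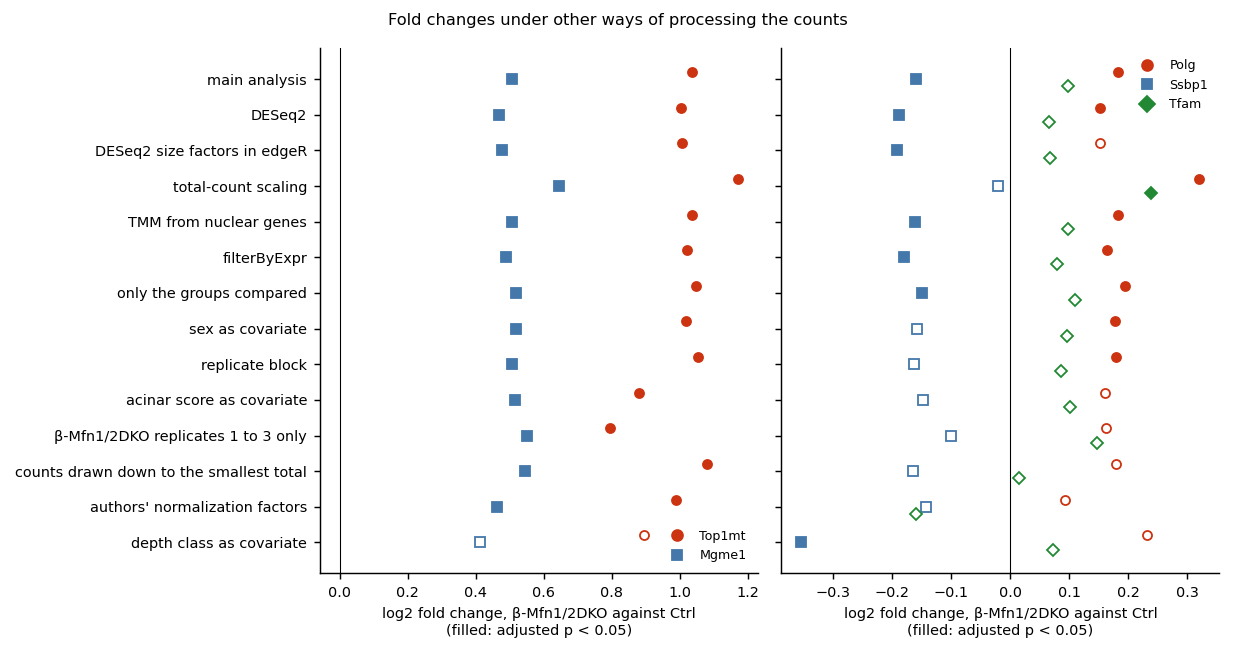
Log2 fold change in β-Mfn1/2DKO against Ctrl (x axis) under each way of processing the counts (rows), for Top1mt and Mgme1 (left) and Polg, Ssbp1 and Tfam (right), filled for an adjusted p under 0.05. Top1mt and Mgme1 stay above 0.4 throughout and lose the call with depth class as a covariate, whereas Polg and Ssbp1 lose it in several rows and Tfam changes sign with the authors' factors.

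Across the 20 libraries, after the group means were taken out, the 45 pairs of members had Pearson correlations of -0.56 to 0.54 with a median of -0.04. These are descriptions over libraries that share depth and cell makeup. For 9 of the members, the gene most like each among 12274 genes averaging 100 normalized counts or more was Tmem11 for Top1mt (r = 0.88), Commd10 for Tefm (0.88), Erg for Twnk (0.84), Ints7 for Polg (0.82) and Ndufa1 for Ssbp1 (0.81). Erg is an endothelial transcription factor gene. The endothelial markers were higher in β-Mfn1/2DKO, but that difference does not enter this r, since the group means were taken out. The part of endothelial cells in the values of Twnk was not tested. For the remaining 4 it was Ccdc191 for Primpol (0.80), Ulk4 for Polrmt (0.80), Letmd1 for Mgme1 (0.80) and Atf1 for Tfam (0.79). In none of these 9 cases was the nearest gene another member. Each r is the highest among 12274 genes, and the level that chance would reach was not computed.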

How the data were processed

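RNA was sequenced from 20 islet samples in 4 genotypes, which were grouped by the genotype labels. The authors trimmed paired-end reads with cutadapt 2.3, checked them with FastQC 0.11.8, aligned them to GRCm38 with STAR 2.6.1b and estimated gene counts with RSEM 1.3.1. The deposited counts are whole numbers without normalization, and genes at 0 in all samples had been removed by the authors. A second deposited table holds a signal normalized by the authors with DESeq2 1.26.0, from which their factors were recovered as count over signal. The strand setting and the step that made the factors differ between genes are not given in the sources used here. All sample columns were used (0 left out).

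Ensembl IDs were matched to GENCODE symbols on GRCm38, and 71 had none. The 10 members and the other lists were chosen with earlier results of these data known. The test was that of edgeR 4.0.16 (R 4.3.3, limma 3.58.1) on TMM-scaled counts: 1 quasi-likelihood fit of 20 libraries with a coefficient per group and no covariate, 6.24 prior degrees of freedom, and Benjamini-Hochberg adjustment over 28632 genes. A gene passed at an adjusted p under 0.05. The script was tested on simulated data. Intervals are 95% confidence intervals of the fold change, from its SE on the log2 scale, which rests on the spread between libraries. Depth was 12400687 to 122947313 counts a library. Promoter windows come from RefSeq on GRCm38.p6. Tables and plots were made with Python 3.11.15, pandas 2.3.3 and matplotlib 3.10.9.

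The members are named in the text by role. Of each other list, the genes that passed in β-Mfn1/2DKO against Ctrl are named. Genes that share exonic bases with a member are named beside it, apart from those at under 1 count a library on average. The nearest gene is the one of highest Pearson r over 20 libraries. That of Polg2 is not reported here. Alternatives to the test were DESeq2 1.42.0, its size factors or no TMM in edgeR, TMM on nuclear genes alone, a filter by filterByExpr, fits restricted to the compared groups, covariates for sex, replicate number and acinar score (mean log2 CPM of the 12 acinar markers), β-Mfn1/2DKO replicates 1 to 3 alone, counts drawn down to the smallest total, the deep libraries alone, a fold over 1.5, and each library left out. The authors' factors, depth class as a covariate and shallow libraries alone were added after seeing the data.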

Additional observations from a re-analysis of the deposited data

Results flagged for a closer look

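In 40 groups of a member's normalized counts, 3 held a library whose gap to the rest was beyond Dixon's limit at the 95% level, where chance flags about 1 in 20. Mgme1 in β-Mfn1/2DKO replicate 2 was at 525, against 469 to 478 in the other 4 libraries of its group. Primpol in Ctrl replicate 3 was at 337, against 271 to 291 in the other Ctrl libraries, and Primpol in β-Mfn2KO replicate 3 was at 350.0, against 293 to 306 in the others of its group.

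The effect of losing Mfn1 on Twnk differed between islets with and without Mfn2, by 0.37 on the log2 scale (adjusted p = 0.027 for the interaction by edgeR). This is 1 of 10 members, beside 10.9% of the genes kept by the filter. It passed in 17 of the 20 fits that left out 1 library and in 6 of 11 other settings, and did not with the replicate block (adjusted p = 0.082), the acinar covariate (0.066), β-Mfn1/2DKO replicates 1 to 3 alone (0.072), depth class as a covariate (0.11) or the authors' factors (0.17). All 5 β-Mfn1/2DKO libraries were above all libraries of both single knockouts. They were also deeper than all of these, so depth and genotype cannot be told apart.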

How the results depend on the processing

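In β-Mfn1/2DKO against Ctrl 4 members passed. The count was 2 (Top1mt and Mgme1) with the acinar covariate, with β-Mfn1/2DKO replicates 1 to 3, with counts drawn down and with the authors' factors, 1 with depth class as a covariate (Ssbp1), 1 with the fold required (Top1mt), and 2 to 4 with 1 library left out. Against β-Mfn2KO (3 passed) it was 5 with DESeq2 and with filterByExpr, 6 with total-count scaling, 1 with the authors' factors, 1 with depth class, and 2 to 6 with 1 library left out. Against β-Mfn1KO (5 passed) it was 3 with the sex, acinar or replicate block covariates and with the authors' factors, 2 with replicates 1 to 3, 1 with depth class, and 3 to 5 with 1 library left out. For the interaction (1 passed) it was 2 with DESeq2 and filterByExpr, 0 with the replicate block, the acinar covariate, replicates 1 to 3 and the authors' factors, 1 with depth class (Ssbp1 in place of Twnk), and 0 to 2 with 1 library left out. Both single knockouts stayed at 0 throughout.

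Total-count scaling moved the median of the genes kept by filterByExpr from 0.04 to 0.17 in β-Mfn1/2DKO against Ctrl. Signs changed for values not past the threshold. Against Ctrl in β-Mfn1/2DKO, counts drawn down gave Polg2 -0.0072, Primpol -0.10 and Polrmt -0.023, the authors' factors Primpol -0.0081 and Tfam -0.16, and Tefm was 0.13 by total counts, 0.0078 with the groups compared, 0.0046 with sex and 0.028 with replicates 1 to 3. In β-Mfn2KO, Polg was -0.0048 with the authors' factors, and Ssbp1 was 0.00085 with DESeq2, 0.027 by total counts, 3.4e-05 with sex and 0.0036 with the acinar covariate. In β-Mfn1KO, Top1mt was 0.013 with the acinar covariate, Polg 0.00042 with sex, 0.0038 with the block, 0.0075 with the acinar covariate and 0.047 with the authors' factors, these also gave Primpol 0.13 and Tfam -0.069, and Polrmt was -0.0092 by total counts and -0.0017 with the block. Against β-Mfn2KO, Primpol was 0.049 by total counts and 0.029 with deep libraries, and Tefm -0.032 with depth class. Against β-Mfn1KO the authors' factors gave Polg2 -0.029, Primpol -0.14 and Tfam -0.0895, depth class Polg2 -0.025, and total counts Tefm 0.0604. In the interaction the authors' factors gave Polg2 -0.027 and Primpol -0.36, and total counts Tefm 0.093. With 1 library left out, Tefm ran from -0.033 to 0.035 in β-Mfn1/2DKO against Ctrl and from -0.12 to 0.057 in the interaction, Polg2 from -0.0703 to 0.0013 and Ssbp1 from -0.037 to 0.045 in β-Mfn2KO, Top1mt from -0.35 to 0.11, Polg from -0.0400 to 0.036 and Polrmt from -0.048 to 0.051 in β-Mfn1KO, Primpol from -0.076 to 0.0084 against β-Mfn2KO, and Polg2 from -0.0078 to 0.11 against β-Mfn1KO. The cause was not tested. Libraries that share a replicate number had deviations that correlated at -0.10 to 0.58 over 27 pairs, 21 of them above 0.1, with a median of 0.26 against -0.08 for libraries of other numbers, and 10 of 19 libraries correlated best with their own number. Replicate number also went largely with sex, since in every group the first replicates were female and the last male. Number and sex were not separated in these correlations. Since not every pair was above 0.1 and the labels do not say what the number marks, the numbers were not taken as pairing. With the block 3 members passed in β-Mfn1/2DKO against Ctrl, without Ssbp1 (adjusted p = 0.082), and 3 against β-Mfn2KO. Top1mt, at 15 to 48 counts in Ctrl and β-Mfn1KO libraries, is limited by depth.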
